A study of Mus musculus with 6 samples.

Results

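Glucose entry and early glucose handling in pancreatic islets were examined through 8 genes taken by symbol from the deposited RNA sequencing table: the glucose transporter genes Slc2a1 and Slc2a2, the hexokinase gene Hk1, the glucose-6-phosphatase gene G6pc2, the KATP channel genes Abcc8 and Kcnj11, the cation channel gene Trpm5 and the gap junction gene Gjd2. All 8 were found, among 19940 genes in the table, and all 8 had at least 500 mean reads. The islets came from C57BL6/J mice, with 3 pregnant samples taken at gestational day 14.5 and 3 nonpregnant samples named as littermates, and were picked by hand after enzyme digestion of the pancreas. The design text counts 5 animals per group, and the labels do not say how many animals stand behind a sample or name a transgene, drug or diet. The table gives 1 mean per group and no value for a library, so every level below is the authors' mean and the overlap of single libraries could not be seen.

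Beta cells read blood glucose through its own metabolism. Glucose enters through facilitative transporters, is phosphorylated by a hexokinase and is burned, and the rise in ATP closes KATP channels. The membrane then depolarises, calcium enters and insulin is released. G6PC2 works against the first step by removing the phosphate again, TRPM5 adds a depolarising current, and the connexin encoded by Gjd2 couples beta cells electrically so that they fire together. Most hexokinases are inhibited by their product and have a high affinity for glucose, and hexokinase 1 is kept low in mature beta cells. Pregnant rodents are known to secrete insulin at a lower glucose threshold.

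At the deposited scaling, G6pc2 was the only 1 of the 8 genes that passed an adjusted p under 0.05. It rose 1.32-fold in pregnant islets (adjusted p = 0.0152 per the authors' deposited table). Before adjustment, 3 of the 8 had a deposited p under 0.05, namely G6pc2, Slc2a2 and Abcc8. The main glucose transporter gene Slc2a2 and the KATP regulatory subunit gene Abcc8 did not pass, at 0.83 and 0.87 of the nonpregnant level per the authors' deposited table. Slc2a1 stood at 1.3, Kcnj11 at 1.11, Trpm5 at 0.91, Gjd2 at 0.9 and Hk1 at 0.87 per the authors' deposited table, with adjusted p-values from 0.264 to 0.932. In all, 11.7% of the measured genes passed (7.57% higher and 4.15% lower), and 16.1% of the genes with at least 500 mean reads, so 1 of 8 is close to the share of the table. The median log2 ratio of the 8 was -0.14, against -0.02 over all genes and -0.01 over genes with at least 500 mean reads.

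RefSeq promoter windows on GRCm38.p6 were at hand for 6 of the 8 genes, in 8 windows. A window of 250 bases is shown for each of 3 genes, the gene called at the deposited scaling and the transporter pair that stood on opposite sides of no change. The motifs searched, on both strands, were the TATA box TATAAA, the E-box CANNTG, the forkhead motif GTAAACA and the HNF1 core GTTAAT. Capitals mark matches, all of which were E-boxes. The G6pc2 window (chr2:69219699-69219948, plus strand) is the nearer of its windows to the start of its coding transcripts. It lies inside the annotated span of the gene, which starts at 69211073. The Slc2a2 window lies at chr3:28697653-28697902 (plus strand). The Slc2a1 window lies at chr4:119108495-119108744 (plus strand) and reaches past the annotated gene start at 119108711.
G6pc2: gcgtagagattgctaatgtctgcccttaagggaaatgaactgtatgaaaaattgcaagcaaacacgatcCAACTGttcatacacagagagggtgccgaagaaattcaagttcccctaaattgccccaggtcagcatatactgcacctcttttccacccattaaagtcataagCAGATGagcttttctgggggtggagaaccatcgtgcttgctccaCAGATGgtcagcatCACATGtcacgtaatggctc
Slc2a2: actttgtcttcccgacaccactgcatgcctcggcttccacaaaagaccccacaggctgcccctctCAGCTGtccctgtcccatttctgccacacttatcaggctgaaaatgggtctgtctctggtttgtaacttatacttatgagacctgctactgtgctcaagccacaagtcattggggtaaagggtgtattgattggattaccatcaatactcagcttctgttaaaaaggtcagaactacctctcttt
Slc2a1: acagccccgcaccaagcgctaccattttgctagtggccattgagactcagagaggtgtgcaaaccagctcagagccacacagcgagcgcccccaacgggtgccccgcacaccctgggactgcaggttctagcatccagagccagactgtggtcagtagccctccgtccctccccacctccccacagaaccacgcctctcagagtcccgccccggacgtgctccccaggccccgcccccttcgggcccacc
The G6pc2 window shown held 4 E-boxes, the Slc2a2 window 1 and the Slc2a1 window 0. The other G6pc2 window (chr2:69210823-69211072, plus strand), which directly precedes the annotated start of the gene, held 1. Of all 32851 promoter windows of this length, 66.2% held an E-box, 12.4% TATAAA, 3.17% GTAAACA and 6.43% GTTAAT. The windows differed in base composition. The Slc2a1 window held 13 CpG dinucleotides at 66.4% GC, against 2 at 47.2% for Slc2a2 and 5 at 46.0% for this G6pc2 window, while the median over all windows was 6 at 52.4%. The Gjd2 window was the richest of the 8, with 33 CpG dinucleotides at 74.0% GC. Matches are descriptions of letters only.

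The deposited p-values carry an error for each ratio. The log2 ratio divided by the normal deviate of its p gave a standard error (SE) whose median did not depend on the size of the deviate: it was 0.105 among 402 genes with deviates of 0.2 to 0.5 and 0.105 among 400 genes with deviates of 3 to 5, both over genes of 5000 to 50000 mean reads. The third quartile was higher at the larger deviates, at 0.119 against 0.109. This implied SE and the 95% interval built from it are used below. They assume a two-sided normal test, which no source states, and rest on 3 libraries a group. Nothing says whether these came from separate animals, so the spread they measure may be technical.

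Slc2a2 encodes the low-affinity glucose transporter of rodent beta cells and liver. Its authors' mean was 70860 reads in nonpregnant and 57597 reads in pregnant islets. It ranked 60 of 19940 genes by reads in the nonpregnant mean and 91 in the pregnant mean. The log2 ratio per the authors' deposited table was -0.26 (implied SE 0.127, p = 0.0374, adjusted p = 0.187). The implied 95% interval ran from 0.701 to 0.989 of the nonpregnant level, without adjustment for the number of genes. With read means divided by their sums over all genes, Slc2a2 passed as lower, at a log2 ratio of -0.35 and an adjusted p rebuilt from the implied SE of 0.0411. It passed under none of the other scalings and pseudocounts. The rebuilt adjusted p was 0.155 with islet hormone and acinar genes left out of the sums and 0.109 with no rescaling.

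Slc2a1 encodes the high-affinity transporter found in most tissues. Its authors' mean was 1070 reads in nonpregnant and 1354 reads in pregnant islets, low beside Slc2a2. The log2 ratio per the authors' deposited table was 0.37 (implied SE 0.202, p = 0.0635, adjusted p = 0.264). Its interval was wide, from 0.986-fold to 1.70-fold. Per kilobase of exon, Slc2a2 stood 40.3 times above Slc2a1 in the nonpregnant mean and 25.9 times above it in the pregnant mean. That shift between the transporters has no test here, because the group means hold no covariance between genes.

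**Figure D1:**
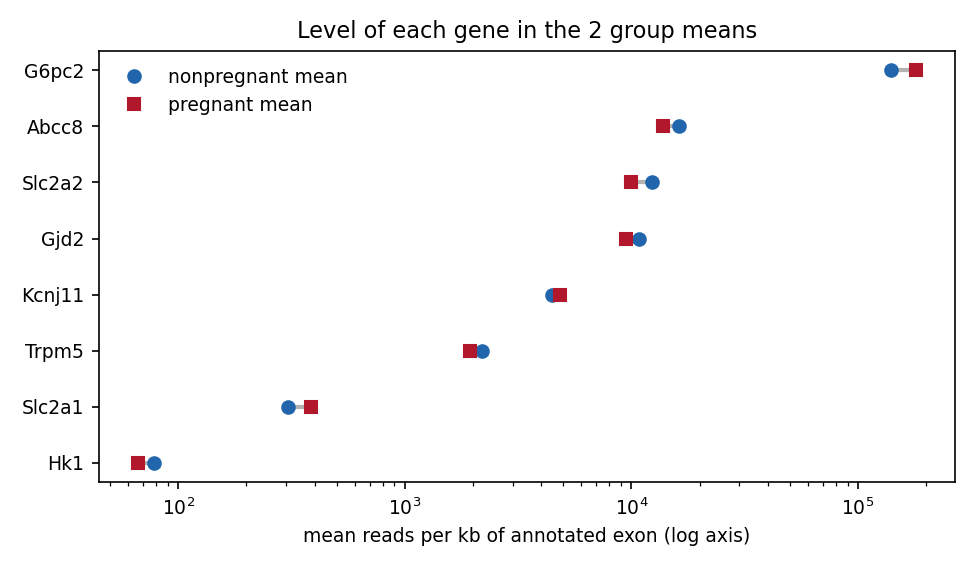
Mean reads per kilobase of annotated exon for each of the 8 genes, on a log axis, with a circle for the nonpregnant and a square for the pregnant mean. G6pc2 lies highest, from 139736 to 180175, and Hk1 lowest, from 77.8 to 66.1, and each pair of points is close beside this range.

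Slc2a5, which encodes the fructose transporter, was the second most abundant of the 17 transporter genes measured, and it rose. Its authors' mean went from 21737 to 26359 reads, 1.24-fold per the authors' deposited table (adjusted p = 0.0218). The Slc2a5 call was lost with both groups scaled to all mean reads (rebuilt adjusted p = 0.125) or to mean reads without acinar genes (0.0867), and with a pseudocount of 10 (0.0528), all rebuilt from the p in the authors' deposited table. It held when islet hormone genes and acinar genes were both left out of the sums (0.0302). Slc2a13, the gene of a proton-coupled myo-inositol transporter, rose 3.25-fold per the authors' deposited table, from 2735 to 8689 reads (adjusted p = 3.01e-20). Slc2a3, a high-affinity transporter gene known from neurons, fell to 0.66 per the authors' deposited table, from 436 to 281 reads (adjusted p = 0.00489). These 3 were the transporter genes that passed, 2 higher and 1 lower, against 14 that did not. Over all genes, 11.7% passed. Slc2a9, the gene of a urate transporter, had 314 and 447 reads and did not pass (1.46-fold and adjusted p = 0.0527 per the authors' deposited table), but passed as higher with log2 ratios centred on the median gene (rebuilt adjusted p of 0.0465). Slc2a2 made up 61.4% of the transporter reads per kilobase in the nonpregnant mean and 50.1% in the pregnant mean, while Slc2a5 went from 31.9% to 38.8% and Slc2a13 from 1.63% to 5.20%. The list holds transporters of other sugars, so these are shares of transcripts and not of glucose transport.

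Hk1 encodes a high-affinity hexokinase. The authors' mean was 664 reads in nonpregnant and 564 reads in pregnant islets, the lowest of the 8 genes. Its log2 ratio per the authors' deposited table was -0.20 (implied SE 0.148, adjusted p = 0.491), with an interval from 0.711 to 1.06. Of the 6 genes of hexose phosphorylation and its control that were measured here, 0 passed, beside 11.7% of all genes. Adpgk, which encodes an ADP-dependent kinase of glucose, was the most abundant of these 6, with 1876 and 2327 reads, and was at 1.27-fold per the authors' deposited table without passing (adjusted p = 0.0663). Hk2 and Hk3, the other high-affinity hexokinase genes, had at most 44 mean reads in either group.

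G6pc2 encodes the islet form of the glucose-6-phosphatase catalytic subunit, an enzyme of the endoplasmic reticulum that turns glucose-6-phosphate back into glucose. The authors' mean was 275838 reads in nonpregnant and 355666 reads in pregnant islets. It was the most abundant of the 8 genes, at rank 17 by reads in the nonpregnant mean and rank 10 in the pregnant mean. The log2 ratio per the authors' deposited table was 0.40 (implied SE 0.124, p = 0.00126, adjusted p = 0.0152). The interval ran from 1.12-fold to 1.56-fold. The call depends on the scaling. With read means divided by their sums, the log2 ratio was 0.31 and the adjusted p rebuilt from the implied SE was 0.0709, and with acinar genes left out of the sums they were 0.34 and 0.0503. With islet hormone genes left out as well, G6pc2 passed, at 0.39 and a rebuilt adjusted p of 0.0197. It also passed with log2 ratios centred on the median gene (0.0121) and with no rescaling (0.0303).

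Slc37a1, the gene of a phosphate-linked glucose-6-phosphate antiporter, also rose, 1.27-fold per the authors' deposited table (5639 to 7004 reads, adjusted p = 0.012). Scaled to all mean reads or to mean reads without acinar genes, the Slc37a1 call was lost, with rebuilt adjusted p of 0.0794 and 0.053. With islet hormone genes left out as well, the call held (0.0172). Slc37a4 encodes the transporter that carries glucose-6-phosphate to the phosphatase, and it was at 0.97 per the authors' deposited table (6916 and 6570 reads, adjusted p = 0.967). The ubiquitous phosphatase gene G6pc3 was at 1.11 per the authors' deposited table (3036 and 3292 reads, adjusted p = 0.475). Of the 5 phosphatase and antiporter genes measured, 2 rose and 0 fell at the deposited scaling, beside the 11.7% of all genes that passed. Per kilobase of exon, G6pc2 stood 102 times above G6pc3 in the nonpregnant mean and 122 times above it in the pregnant mean.

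The KATP channel is built from a Kir pore subunit, encoded by Kcnj11, and a sulfonylurea receptor, encoded by Abcc8. Both genes lie on the minus strand of chromosome 7 of GRCm38, Kcnj11 at 46093953 to 46100764 and Abcc8 at 46104523 to 46180033, 3758 bases apart in the GENCODE M21 annotation. The identifier of Kcnj11 in the table (ENSMUSG00000070561) is not in that annotation and was matched by symbol.

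For Abcc8 the authors' mean was 131231 reads in nonpregnant and 111128 reads in pregnant islets. Its log2 ratio per the authors' deposited table was -0.20 (implied SE 0.10, p = 0.0415, adjusted p = 0.201), with an interval from 0.758 to 0.995. It too passed as lower once read means were divided by their sums, at a log2 ratio of -0.29 and a rebuilt adjusted p of 0.0289. Abcc8 passed under none of the other scalings and pseudocounts. Its rebuilt adjusted p was 0.156 with islet hormone and acinar genes left out of the sums and 0.101 with no rescaling. For Kcnj11 the authors' mean was 16399 reads in nonpregnant and 17733 reads in pregnant islets. The log2 ratio per the authors' deposited table was 0.15 (implied SE 0.101, adjusted p = 0.443), with an interval from 0.965-fold to 1.27-fold. The channel genes thus stood on opposite sides of no change, and neither passed.

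Per kilobase of exon, Abcc8 stood 3.64 times above Kcnj11 in the nonpregnant mean and 2.85 times above it in the pregnant mean. By the longest coding transcript, a length chosen after seeing the data, these ratios were 5.16 and 4.04. The difference between the groups in this ratio was not tested. Abcc9 and Kcnj8, which encode the KATP subunits of muscle and vessels, were far lower. Abcc9 had 509 and 585 reads, and the authors' deposited table gave it a ratio of 1.18 (adjusted p = 0.361). Kcnj8 had 42 and 67 reads and a ratio of 1.62 per the authors' deposited table (adjusted p = 0.406).

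Among the 15 genes of the Kir potassium channel family, Kcnj11 held 85.7% of the reads per kilobase in the nonpregnant mean and 83.9% in the pregnant mean. Beside the 11.7% of all genes that passed, 1 member of the family did so, Kcnj5, the gene of a G protein-gated Kir subunit. It rose 4.06-fold per the authors' deposited table, from 125 to 498 reads (adjusted p = 2.16e-07). Kcnj12, the second most abundant, did not pass, at 1.32-fold per the authors' deposited table (adjusted p = 0.243).

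**Figure D2:**
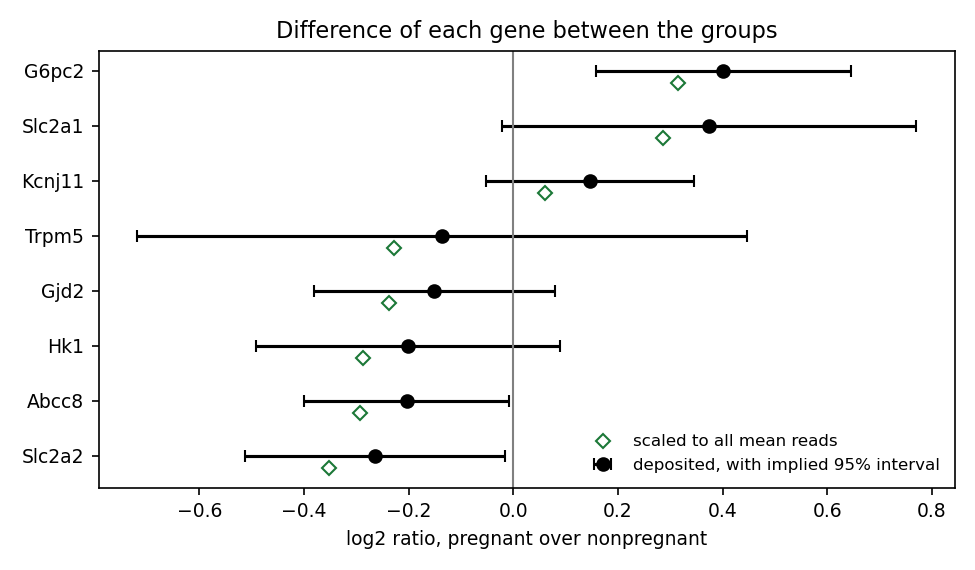
Log2 ratio of pregnant over nonpregnant for the 8 genes, with circles for the deposited ratio, bars for its implied 95% interval and diamonds for the ratio after scaling to all mean reads. The interval of G6pc2 runs from 0.16 to 0.64 and those of Slc2a2 and Abcc8 end just below 0, while Slc2a1, Kcnj11, Trpm5, Gjd2 and Hk1 span 0.

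Trpm5 encodes a calcium-activated cation channel that depolarises taste cells and beta cells. The authors' mean was 13963 reads in nonpregnant and 12364 reads in pregnant islets. Its log2 ratio per the authors' deposited table was -0.14 (adjusted p = 0.932). Trpm5 had the widest error of the 8, with an implied SE of 0.297, against a median of 0.103 for the 500 genes nearest to it in reads. That SE was above those of 98.8% of these neighbours. The interval ran from 0.608 to 1.36 and was the widest of the 8.

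Of the 8 TRPM channel genes measured, Trpm5 included, 1 rose, 1 fell and 6 did not pass. Over all genes, 11.7% passed. Trpm1, a channel gene known from retinal bipolar cells and melanocytes, rose 16.2-fold per the authors' deposited table, from 34 to 547 reads (adjusted p = 4.56e-70). Trpm2, a calcium-permeable channel gated by ADP-ribose, fell to 0.78 per the authors' deposited table, from 1074 to 819 reads (adjusted p = 0.0491). With log2 ratios centred on the median gene the Trpm2 call was lost (adjusted p = 0.0585, rebuilt from the p in the authors' deposited table). Trpm3 did not pass as deposited (2309 and 1844 reads) but passed as lower under 5 of the 7 other scalings and pseudocounts, with rebuilt adjusted p of 0.0114 to 0.0445. These 5 include the read means with no rescaling at each pseudocount, which hardly differ from each other. Trpm7 (6294 and 5220 reads) passed as lower under 1 of the 7, the scaling to all mean reads, with a rebuilt adjusted p of 0.0393. Trpm4, the nearest relative of Trpm5, had 1141 and 1232 reads and was at 1.11 per the authors' deposited table (adjusted p = 0.69). Trpm5 held 71.9% of TRPM reads per kilobase in the nonpregnant mean and 71.8% in the pregnant mean.

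Gjd2 encodes the connexin of beta cell gap junctions. The authors' mean was 31111 reads in nonpregnant and 27365 reads in pregnant islets. The log2 ratio per the authors' deposited table was -0.15 (implied SE 0.118, adjusted p = 0.53), with an interval from 0.768 to 1.06. It accounted for 97.6% of connexin reads per kilobase in the nonpregnant mean and 96.6% in the pregnant mean, among 17 connexin genes measured. Gjb2, a connexin gene of exocrine and other epithelia, was the 1 connexin gene that passed, with 8 and 78 reads (9.33-fold per the authors' deposited table, adjusted p = 0.00117). Over all genes, 11.7% passed. Acinar marker genes, from the exocrine cells around islets, were higher in the same comparison in 30 of 32 cases, with 1.74% of all mean reads in pregnant against 0.138% in nonpregnant islets, and their part in the Gjb2 value was not tested. The acinar ratios had a median implied SE of 1.18 on the log2 scale, against 0.126 for the 8 genes. Gja1, the connexin gene most widely expressed in other tissues, had 436 and 510 reads and did not pass (adjusted p = 0.312 per the authors' deposited table).

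**Figure D3:**
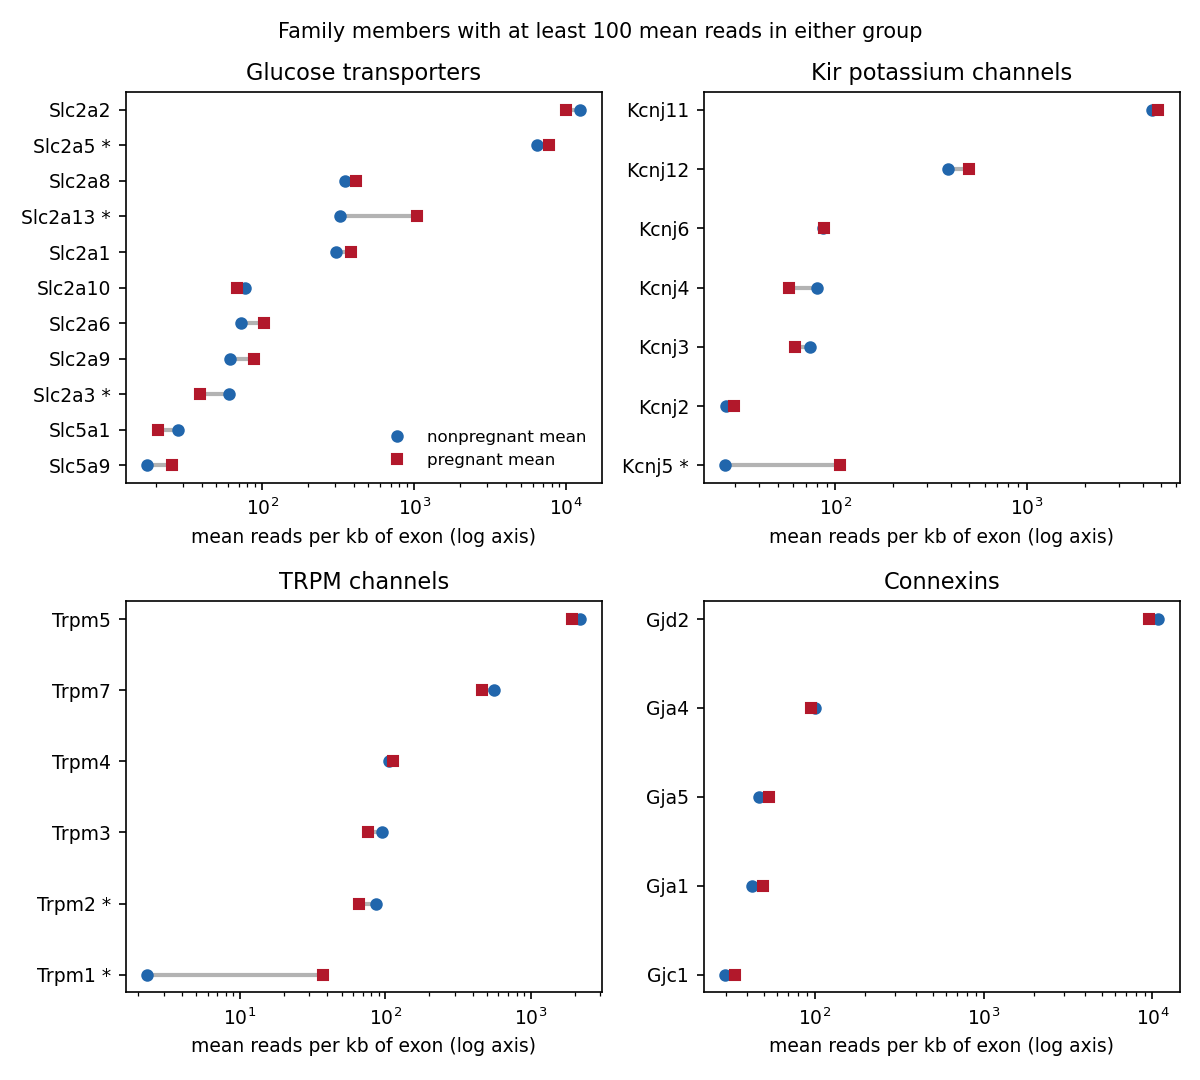
Mean reads per kilobase of exon, on log axes, for the family members with at least 100 mean reads in either group, with circles for the nonpregnant and squares for the pregnant mean and an asterisk where the deposited adjusted p was under 0.05. Slc2a2, Kcnj11, Trpm5 and Gjd2 head their families, and the wide gaps belong to Slc2a13, Kcnj5 and Trpm1.

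The implied errors set the 8 genes apart from each other. Abcc8 and Kcnj11 had implied SEs above only 7.6% and 8.2% of the 500 genes nearest in reads, close to the lowest value that occurs at their level. G6pc2, Gjd2 and Slc2a2 lay above 74.4%, 76.0% and 76.6% of their neighbours and Hk1 above 60.0%. Slc2a1 lay above 93.8%, second to Trpm5. A ratio as large as that of G6pc2 would thus carry a different p in each of these genes.

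**Figure D4:**
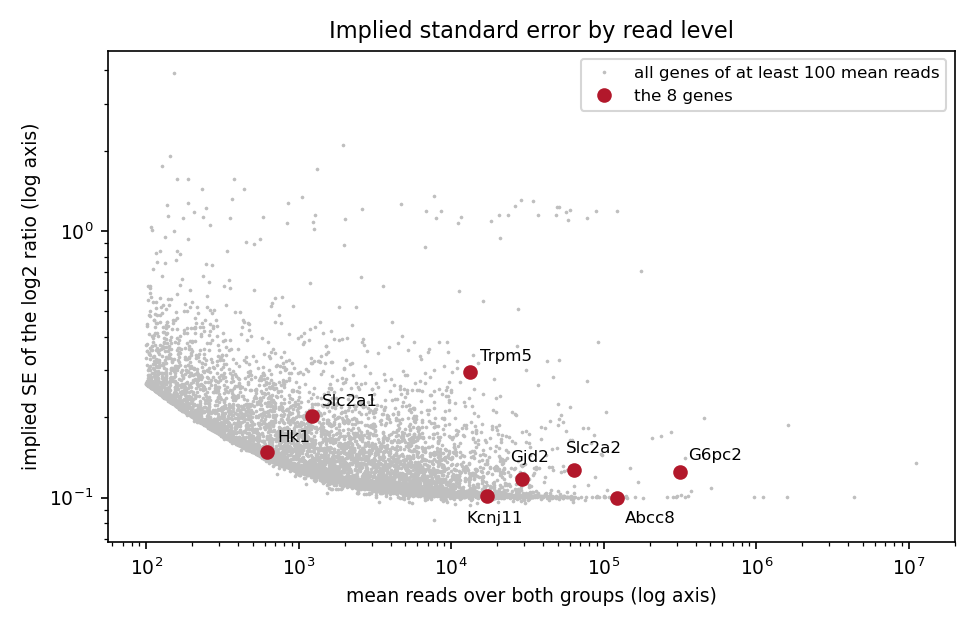
Implied standard error of the log2 ratio against mean reads over both groups, on log axes, with grey points for all genes of at least 100 mean reads and filled circles for the 8 genes. Abcc8 and Kcnj11 lie on the lower edge of the cloud at 0.10, and Trpm5 lies well above it at 0.297.

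Genes downstream of glucose phosphorylation were counted in a pair of lists, beside the 11.7% of all genes and 16.1% of genes with at least 500 mean reads that passed. Of 14 glycolysis genes measured, 1 rose and 0 fell, with a median log2 ratio of 0.13. The gene that rose was Tpi1, triosephosphate isomerase, at 1.26-fold per the authors' deposited table (7243 to 8926 reads, adjusted p = 0.0147). The most abundant of the 14, Aldoa, an aldolase gene, had 31098 and 35234 reads and did not pass (adjusted p = 0.172 per the authors' deposited table), nor did Gpi1, glucose phosphate isomerase, with 11981 and 12782 reads. Of 12 genes of pyruvate use and the redox shuttles, 2 rose and 1 fell, with a median log2 ratio of 0.17. Pcx, pyruvate carboxylase, rose 1.25-fold per the authors' deposited table (16779 to 20484 reads, adjusted p = 0.0175). Mdh1, the cytosolic malate dehydrogenase gene, had 16128 and 19032 reads and did not pass (1.21-fold and adjusted p = 0.058 per the authors' deposited table), but passed as higher with log2 ratios centred on the median gene (rebuilt adjusted p of 0.0462). Scaled to all mean reads, neither Tpi1 nor Pcx passed (adjusted p = 0.0928 and 0.108, rebuilt from the p in the authors' deposited table). Without acinar genes in the sums they did not pass either (rebuilt adjusted p of 0.0623 and 0.0734). With islet hormone genes left out as well, both passed (0.0208 and 0.0246).

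The glycerol phosphate shuttle, which passes cytosolic reducing power to the respiratory chain, held genes of both directions. Gpd1, its cytosolic enzyme, rose 1.44-fold per the authors' deposited table (2306 to 3232 reads, adjusted p = 0.000221). Gpd2, its mitochondrial enzyme, fell to 0.65 per the authors' deposited table (12271 to 7783 reads, adjusted p = 1.06e-07).

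**Figure D5:**
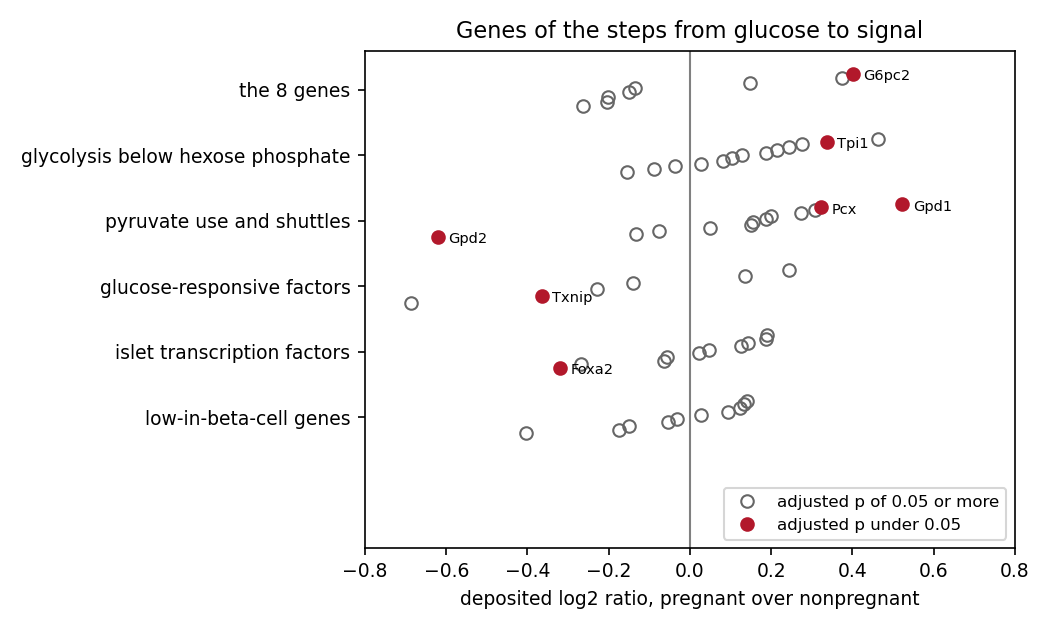
Deposited log2 ratio of pregnant over nonpregnant for the 8 genes and for 5 other lists, with 1 point for each gene of at least 100 mean reads in either group, filled where the adjusted p was under 0.05. G6pc2, Tpi1, Pcx and Gpd1 lie to the right and Gpd2, Txnip and Foxa2 to the left, while most points are open.

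Marker genes set the frame for these bulk values, in which fewer cells of a type and less RNA per cell cannot be told apart. Defining beta cell genes were abundant in both groups, as the label of islets says, with 18.6% of nonpregnant and 21.7% of pregnant mean reads in 10 marker genes. Most of these reads came from Ins2 (10394603 nonpregnant and 11981604 pregnant mean reads), Ins1 (3449821 and 5230668) and Iapp (1567347 and 1616804), so the share follows the hormone genes. Of the 10, Ins1 was higher, at 1.55-fold per the authors' deposited table (adjusted p = 1.61e-08), and some reads of Ins1 and Ins2 may be hard to assign because the genes are similar in sequence. The zinc transporter gene Slc30a8 was lower, at 0.66 per the authors' deposited table (112245 to 72861 reads, adjusted p = 2.77e-07). The other 8 did not pass, and Mafa and Nkx6-1, which define mature beta cells, were at 1.02 and 0.96 per the authors' deposited table without passing. Alpha cell markers held 2.48% and 1.66% of mean reads, with 0 higher and 5 lower of 9. Delta and PP cell markers held 0.783% and 0.648%, with 0 higher and 2 lower of 7. Endothelial markers held 0.0420% and 0.0394%, with 0 of 10 passing, and macrophage markers 0.00979% and 0.0135%, with 1 of 10 higher. Ductal markers held 0.0579% and 0.0675%, with 2 higher of 10, mesenchymal markers 0.0159% and 0.0167%, with 1 higher of 10, and erythroid markers 0.000431% and 0.00108%, with 1 higher of 8. Over all genes, 7.57% passed as higher and 4.15% as lower. The part of these cell types in the ratios of the 8 genes was not tested.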

How the data were processed

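RNA of hand-picked islets was sequenced from TruSeq libraries, per the labels' protocols. HTSeq 0.5.3p3, Bowtie, TopHat, TopHat2 2.0.12 and the build GRCm38 are named in the submitters' processing notes. The authors deposited, per the file headers, a mean of reads per gene and group, a linear fold ratio, its log2, a p-value and an adjusted p-value (FDR). The test, the scaling of libraries and the use of strand are not given in the sources used here. The table's 19963 lines were reduced to 19940 genes. Mean reads summed to 87654449 in the pregnant and 84493872 in the nonpregnant group, and the depth of single libraries is unknown.

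A gene was called at a deposited adjusted p under 0.05 across all genes, as planned. A test of libraries was to replace this only if the data held counts per library. Implied SEs were computed for all genes, and p-values under other scalings were rebuilt from them with Benjamini-Hochberg adjustment. The scalings were planned, while the implied SE and the rebuilding of p from it were chosen after seeing the data. The code for the implied SE and the adjustment was run on data simulated under a two-sided normal test. That run checks the arithmetic and cannot show whether the deposited p-values came from such a test. Levels per kilobase used all annotated exons of GENCODE M21, in which 7 of the 8 genes matched by identifier. The rule named the 8 and, in each pathway list, those called (at most 4) and the 2 with the most reads, and allowed family members with at least 100 mean reads, of which not all are named. Kcnj8, Hk2, Hk3, Mafa, Ldha, Slc16a1, Neurod1, Ins1, Ins2, Iapp and Slc30a8 fall outside this rule and were named after their values were seen. Some genes of the deposited table are not reported here. The 8 genes and the lists were chosen with earlier results of these data known. Where counting ignored strand, reads of Trpm5, Slc2a1, Slc2a2, Hk1, Abcc8 and Gjd2 are uncertain, as their spans overlap genes on the opposite strand. Python 3.11.15, pandas 2.3.3, numpy 2.4.6 and scipy 1.17.1 were used.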

Additional observations from a re-analysis of the deposited data

How the results depend on the processing

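All 8 genes kept the direction of their ratio under 9 other settings of scale, pseudocount and filter. The filters leave the deposited ratio unchanged, and the pseudocounts hardly move the unscaled ratio at these read levels. The scalings moved all genes nearly alike, with median shifts of -0.088 to 0.01 on the log2 scale. The ratios nearest to no change, -0.14 for Trpm5 and 0.15 for Kcnj11, were larger than these shifts. The kept directions therefore show only that the shifts were small. Of the 72 values of gene and setting, 68 stayed on their side of an adjusted p of 0.05. The exceptions came from scaling, with p-values rebuilt from the implied SE. Scaled to all mean reads, 2 of the 8 passed in place of 1. These were Slc2a2 and Abcc8, both lower, while G6pc2 no longer passed. Without acinar genes in the sums, 0 of the 8 passed. With islet hormone genes left out as well, 1 passed, G6pc2, as at the deposited scaling. At an adjusted p under 0.01, 0 of the 8 and 1458 genes of the table passed, against 2337 at 0.05. Scaling also moved the share of calls that were higher, from 64.6% as deposited to 39.0% scaled to all mean reads and 45.2% without acinar genes. This share was 60.3% without hormone and acinar genes. With no rescaling it was 53.3%, 53.9% and 53.9% at pseudocounts of 0, 1 and 10, so the pseudocount hardly moved it. Reads not divided by length gave nonpregnant family shares of 71.5% for Slc2a2 (61.4% per kilobase), 96.5% for Gjd2 (97.6%), 56.1% for Trpm5 (71.9%), 94.6% for G6pc2 (97.0%) and 88.6% for Abcc8 (78.1%). Refits without single libraries were not run, because the table holds group means. No paired analysis was possible because the columns carry no replicates.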

Other observations

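Of 6 glucose-responsive genes, 0 rose and 1 fell, beside the 11.7% of all genes that passed. Txnip, a thioredoxin-interacting protein induced by glucose, fell to 0.78 per the authors' deposited table (31767 to 24043 reads, adjusted p = 0.00482). Mlxipl, the gene of the glucose-responsive factor ChREBP, stood lower still, at 0.62 per the authors' deposited table (38739 and 23463 reads), yet did not pass (adjusted p = 0.129). Its implied SE was 0.300, against 0.101 for Txnip.

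Beside the 11.7% of all genes that passed, 0 of 11 islet transcription factor genes rose and 1 fell. That gene was Foxa2, a forkhead factor of endoderm and islets, at 0.8 per the authors' deposited table (7272 to 5689 reads, adjusted p = 0.0245). Neurod1, a factor of endocrine differentiation, had 16668 and 13518 reads and did not pass as deposited (0.83 and adjusted p = 0.0681 per the authors' deposited table). It passed as lower under 5 of 7 other scalings and pseudocounts, with rebuilt adjusted p of 0.00705 to 0.033. These 5 include the read means with no rescaling at each pseudocount, which hardly differ from each other. Among 13 genes known to be kept low in beta cells, which include the lactate dehydrogenase gene Ldha and the monocarboxylate transporter gene Slc16a1, 0 passed per the authors' deposited table, with 0 at an unadjusted p under 0.05. The most abundant of them, Mgll, a lipase gene, had 1142 and 1074 reads, and Oat, ornithine aminotransferase, had 943 and 900 reads. The transcription factor genes with the most reads, Nkx6-1 and Pax6, had ratios of 0.96 and 1.03 per the authors' deposited table and adjusted p-values of 0.98 and 0.928.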
